A study of Mus musculus with 2 samples.

Results

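The interleukin-6 family was read in S100GFP+ cells of denervated mouse muscle through 10 genes, namely the 5 ligands Il6, Lif, Osm, Clcf1 and Cntf and the 5 receptor subunits Il6ra, Il6st, Lifr, Osmr and Cntfr. These are 10 of the 32287 features of the count matrix, taken as a list of family members. Hind limb muscle (TA and GTN) of S100GFPtg mice, which carry green fluorescent protein under the S100B promoter and are labelled WT, was taken 7 days after sciatic nerve crush at 2 months of age and dissociated with enzymes. Viable (PI-) cells were divided by flow sorting on GFP, and the positive and the negative cells each gave 1 droplet library with 3' tags. The methods describe pooled male mice and the series design describes a single crushed mouse, so how many animals contributed is uncertain. Only the GFP+ fraction is described, since the matrix of the GFP- fraction was not used here. There was no uninjured library among those analysed, and with 1 library there was no replicate, no test and no p-value.

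Cytokines of this family signal through shared receptors. Il6st encodes gp130, the subunit that every member of the list needs. IL-6 binds its own receptor Il6ra before it engages gp130, LIF uses gp130 paired with Lifr and OSM uses gp130 paired with Osmr, and CNTF and CLCF1 need Cntfr together with Lifr and gp130. The receptors activate Jak kinases and Stat3, and Socs3 limits the signal. In peripheral nerve, CNTF is known as a Schwann cell product and LIF and IL-6 are known to be made after nerve injury, and in muscle IL-6 and LIF act on satellite cells, the stem cells of the fibre.

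Sequences around the transcription start, from 250 bases before it to 50 after, were read for the members from RefSeq (GRCm38.p6), which held 14 promoters for 8 of the 10 members, all but Osm and Clcf1. Of these 14 promoters, 4 (1 each of Il6, Lif, Cntf and Osmr) held the letters TGANTCA, a binding motif of AP-1 that reads the same on both strands, and 7.81% of all 32851 promoters of the same length of 300 bases held it. In Osmr the letters lie after the start site, at bases 4 to 10. The motif GGANTTTCC, of the NF-kB kind, was found on either strand in Il6 alone among the 14 and in 1.25% of all promoters. TATAAA, TTCNNNGAA (of the STAT kind) and TGACGTCA (of the cAMP response kind) were found in none of them on either strand, in these letters and this window, and in 13.6%, 8.30% and 1.79% of all promoters. The motifs found did not overlap each other. The 250 bases before the start site are shown for Il6, whose spread between cells is described below, and for Lif and Cntf, whose levels were highest in Schwann-like cells. Capitals mark the AP-1 letters in all of them and, near the end of Il6, the NF-kB letters. A match is a description of the letters and not of binding. The stretches are chr5:30012864-30013113 (plus strand) for Il6, chr11:4257318-4257567 (plus strand) for Lif and chr19:12765633-12765882 (minus strand) for Cntf, each given 5′ to 3′ along its gene.
Il6: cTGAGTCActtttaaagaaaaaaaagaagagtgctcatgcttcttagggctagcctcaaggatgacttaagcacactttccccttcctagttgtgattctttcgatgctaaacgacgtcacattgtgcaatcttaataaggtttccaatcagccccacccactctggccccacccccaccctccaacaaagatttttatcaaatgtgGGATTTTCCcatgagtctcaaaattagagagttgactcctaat
Lif: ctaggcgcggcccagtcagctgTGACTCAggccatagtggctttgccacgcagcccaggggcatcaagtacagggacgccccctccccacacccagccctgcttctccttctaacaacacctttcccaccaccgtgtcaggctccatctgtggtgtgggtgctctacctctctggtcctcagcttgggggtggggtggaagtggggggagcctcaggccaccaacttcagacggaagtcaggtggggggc
Cntf: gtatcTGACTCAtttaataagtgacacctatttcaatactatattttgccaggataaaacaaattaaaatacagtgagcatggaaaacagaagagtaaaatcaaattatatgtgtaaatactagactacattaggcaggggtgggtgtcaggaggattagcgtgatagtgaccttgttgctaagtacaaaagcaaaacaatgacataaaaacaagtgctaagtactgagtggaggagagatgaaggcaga

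The GFP+ library held 36400 barcodes with a median of 2130 unique molecular identifiers (UMIs, the counts of distinct captured molecules). Members were read in the 8701 barcodes with at least 5000 UMIs that passed the filters, whose median was 11624 UMIs. Cells were put into classes by UMIs of marker genes that do not include any member. Of the 8701, 7652 passed 1 gate, 686 (7.88%) passed several and were left out, and 363 passed none. The 8 classes with at least 40 cells are described, with 78 Schwann-like, 5526 monocyte/macrophage-like, 273 dendritic-like, 1212 mesenchymal-like (fibroblast), 260 tenocyte-like, 176 satellite cell and myoblast-like, 41 endothelial-like and 48 smooth muscle and pericyte-like cells. The leading genes of each class included markers of its own gate, for example Cdh19 in Schwann-like and Pax7 and Myf5 in satellite cell and myoblast-like cells. Cells were chosen by these markers, so their lead is no support for the class names. Of genes outside the gates, Adgrl3 led in Schwann-like, Hs6st3 in satellite cell and myoblast-like and Htr7 in dendritic-like cells. The endothelial-like class was led by Ccl21a, a gene of lymphatic vessels, followed by Flt1 of blood vessels. The 6 mesenchymal markers, all detected in both classes, summed to 400.0 CPM in Schwann-like cells and 4115 CPM in mesenchymal-like cells, and the 8 macrophage markers summed to 126 CPM in mesenchymal-like and 5716 CPM in monocyte/macrophage-like cells, so markers of other classes were detected in these classes, and their part in the levels below was not tested. A list used below for a fibroblast subset (Apod, Tenm2, Col28a1, Smim41 and Nr2f2) summed to 4692 CPM in Schwann-like and 2754 CPM in mesenchymal-like cells. The Schwann markers summed to 3483 CPM in Schwann-like cells. Itgb4, Cldn1, Slc2a1 and Tjp1, read as perineurial markers, summed to 314 CPM in Schwann-like and 89.9 CPM in mesenchymal-like cells. Between the 2 libraries, 372 barcodes were shared.

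The 5 ligands peaked in 4 different classes, Il6 in mesenchymal-like, Osm in monocyte/macrophage-like, Clcf1 in satellite cell and myoblast-like, and Lif and Cntf in Schwann-like cells. Levels are UMIs of the gene for each 1000000 UMIs of the class (CPM) with a 95% Poisson interval that covers counting error only, and since 3' tags do not give levels per length, genes are compared between classes and not with each other. Il6 was highest in mesenchymal-like cells at 518 CPM (508 to 528). Smooth muscle and pericyte-like cells held 223 CPM, Schwann-like cells 59.1 CPM, tenocyte-like cells 40.3 CPM, endothelial-like cells 36.9 CPM, monocyte/macrophage-like cells 35.1 CPM, satellite cell and myoblast-like cells 13.1 CPM and dendritic-like cells 9.14 CPM. Mesenchymal-like cells were therefore 14.7 times as high as monocyte/macrophage-like cells. The order between the highest and the next class was not firm, because 44.6% of the 112 Il6 UMIs of smooth muscle and pericyte-like cells lay in 1 cell, and with a mitochondrial limit of 5%, which left 6 such cells, the log2 ratio of mesenchymal-like over smooth muscle and pericyte-like cells turned from 1.22 to -0.63. The Schwann-like level also rested on few cells, since 35 of its 48 Il6 UMIs were in 1 cell and 8.97% of the cells held any.

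**Figure D1:**
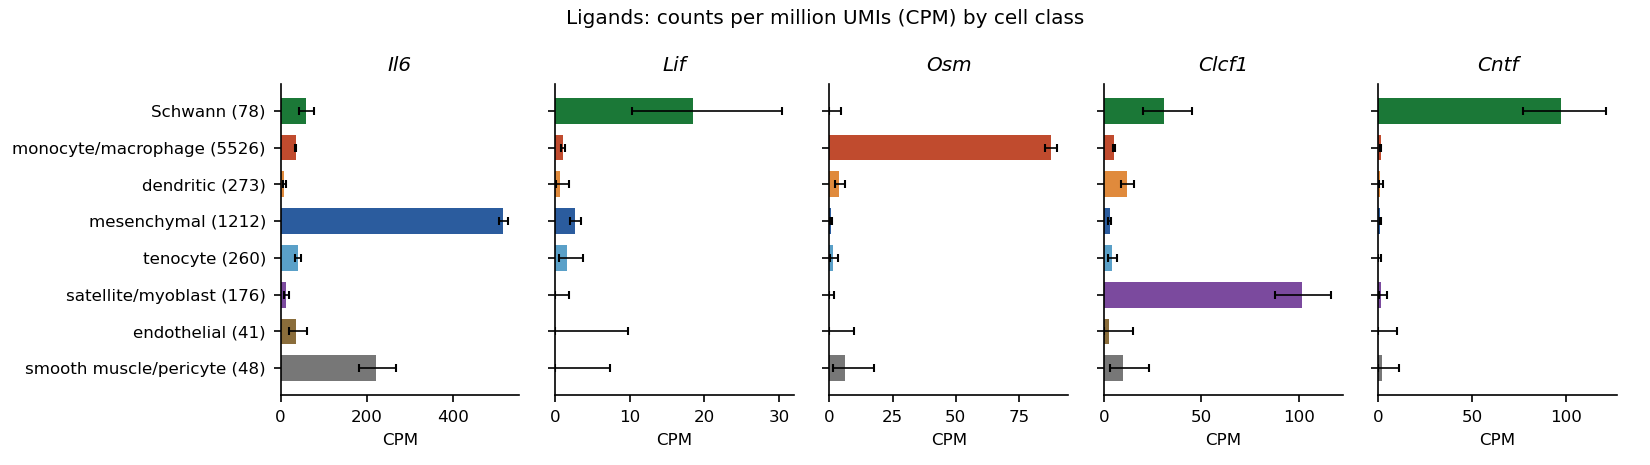
Levels of the 5 ligands in 8 cell classes, in CPM, each panel with its own axis from 0. Bars are the level of the class, lines are 95% Poisson intervals and numbers in brackets are cells. Il6 peaks in mesenchymal-like cells at 518 CPM, Osm in monocyte/macrophage-like cells at 87.7 CPM, Clcf1 in satellite cell and myoblast-like cells at 102 CPM, and Lif and Cntf in Schwann-like cells at 18.5 and 97.2 CPM.

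Osm, a cytokine known from macrophages and T cells, was found almost wholly in monocyte/macrophage-like cells, which held 6000 of its 6038 UMIs in the described classes. The level there was 87.7 CPM (85.5 to 89.9), compared with 5.97 CPM (all 3 UMIs in 1 cell) in smooth muscle and pericyte-like cells, 3.82 CPM in dendritic-like, 1.31 CPM in tenocyte-like and 0.667 CPM in mesenchymal-like cells. No Osm UMI was found in 78 Schwann-like, 176 satellite cell and myoblast-like or 41 endothelial-like cells, where 3 UMIs would have given 3.69, 1.52 and 7.91 CPM. Outside the described classes, 236 Osm UMIs lay in barcodes that passed several gates and 74 in those that passed none. The 12 T and NK-like and 3 neutrophil-like cells were too few to be described. With each cell thinned at random to 5000 UMIs, 25.4% of monocyte/macrophage-like cells (24.3 to 26.6%) held an Osm UMI, compared with 0.495% (0.182 to 1.07%) of mesenchymal-like cells. Unthinned, at a median of 11244 UMIs in the former class and 15828 UMIs in the latter, the shares came to 39.8% and 0.908%.

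Cntf, the ciliary neurotrophic factor, was highest in Schwann-like cells. Its level there was 97.2 CPM (77.0 to 121), with a UMI in 29.5% of the thinned and 51.3% of the unthinned cells and no more than 6 UMIs in any cell, so that the level did not rest on 1 cell. After thinning, mesenchymal-like and monocyte/macrophage-like cells held a Cntf UMI in 0.495% and 0.742% of cells. In the other classes it lay between 0 and 1.99 CPM, the latter from 1 UMI in smooth muscle and pericyte-like cells, and it was at 0 in tenocyte-like and endothelial-like cells, where 3 UMIs would have given 0.982 and 7.91 CPM. Schwann-like cells were 90.3 times as high as mesenchymal-like cells, a log2 ratio of 6.50 (5.79 to 7.27). Without the 1% of cells with the most Cntf UMIs it became 8.18. Only 19 mesenchymal-like cells held a Cntf UMI, and leaving out the 1% took their level from 1.08 to 0.312 CPM. Schwann-like cells fell from 97.2 to 90.5 CPM, so the rise of the ratio is no support for it. Cntf lies on chromosome 19 only 1.31 kb from Zfp91, a broadly used gene that RefSeq joins to it in a read-through gene. Zfp91 itself held 137 CPM in Schwann-like and between 79.9 and 161 CPM in the other classes. The part of read-through transcripts in the Cntf counts was not tested. Lif, the leukemia inhibitory factor, was low throughout, with 148 UMIs in the described classes. Schwann-like cells reached 18.5 CPM (10.3 to 30.4) from 15 UMIs in 12 cells, and the level was 2.67 CPM (1.99 to 3.50) among mesenchymal-like and 1.07 CPM among monocyte/macrophage-like cells. It was at 0 in satellite cell and myoblast-like, endothelial-like and smooth muscle and pericyte-like cells, where 3 UMIs would have given 1.52, 7.91 and 5.97 CPM.

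Clcf1, the cytokine that shares the CNTF receptor, was highest in satellite cell and myoblast-like cells at 102 CPM (88.1 to 117), where 55.1% of the cells held a UMI, or 34.7% after thinning, compared with 1.32% of mesenchymal-like cells after thinning. Schwann-like cells came next at 30.8 CPM (19.9 to 45.4), a log2 difference of 1.72 (1.12 to 2.39). Dendritic-like cells stood at 11.9 CPM, smooth muscle and pericyte-like cells at 9.95 CPM with all 5 UMIs in 1 cell, and mesenchymal-like cells at 3.03 CPM (2.30 to 3.90). Satellite cell and myoblast-like cells were 33.6 times as high as mesenchymal-like cells, a log2 ratio of 5.07. Without the 1% of cells with the most Clcf1 UMIs it became 5.70, with satellite cell and myoblast-like cells at 94.3 CPM and mesenchymal-like cells at 1.82 CPM.

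Of the receptor subunits, Il6ra, Il6st, Lifr and Osmr were detected in all 8 classes and Cntfr in 5. Il6ra, which binds IL-6, peaked at 145 CPM (142 to 148) among monocyte/macrophage-like cells, followed by dendritic-like cells at 82.4 CPM (74.4 to 91.1) and mesenchymal-like cells at 45.7 CPM (42.8 to 48.9). It was lower in Schwann-like (23.4 CPM), endothelial-like (15.8 CPM), tenocyte-like (10.5 CPM), smooth muscle and pericyte-like (7.96 CPM) and satellite cell and myoblast-like cells (4.05 CPM). A UMI was found in 74.5% of monocyte/macrophage-like and 3.98% of satellite cell and myoblast-like cells without thinning, and in 50.3% and 1.14% with it.

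Il6st, which encodes gp130, was detected in every class. Endothelial-like cells held 501 CPM (432 to 578), Schwann-like cells 274 CPM (240 to 313), mesenchymal-like cells 222 CPM (215 to 229), tenocyte-like cells 188 CPM (173 to 204), satellite cell and myoblast-like cells 136 CPM, smooth muscle and pericyte-like cells 69.7 CPM, dendritic-like cells 57.6 CPM and monocyte/macrophage-like cells 51.6 CPM. The intervals of the last 3 classes overlap. The endothelial-like level depended on few cells, since 22.6% of its UMIs lay in 1 cell, and its log2 ratio to mesenchymal-like cells fell from 1.17 to 0.66 when each cell's own CPM was averaged. Taken as a share of thinned cells, Il6st was found in 53.7% of endothelial-like (37.4 to 69.3%), 67.9% of Schwann-like and 63.9% of mesenchymal-like cells.

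Lifr, the receptor shared by LIF, CNTF and CLCF1, peaked at 178 CPM (175 to 181) among monocyte/macrophage-like cells, while endothelial-like cells held 156 CPM (118 to 201) and smooth muscle and pericyte-like cells 147 CPM (116 to 185). These 3 did not differ beyond counting error, with log2 ratios of 0.19 (-0.18 to 0.59) and 0.27 (-0.06 to 0.62) of the first over each of the others. Mesenchymal-like and tenocyte-like cells held 74.9 and 67.4 CPM, satellite cell and myoblast-like cells 29.3 CPM, dendritic-like cells 16.4 CPM and Schwann-like cells 16.0 CPM (8.52 to 27.4). Schwann-like cells, with the highest levels of Lif and Cntf, thus shared the lowest level of Lifr with dendritic-like cells, and monocyte/macrophage-like cells were 11.1 times as high.

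Osmr, the receptor of OSM, was found in all stromal, muscle and vascular classes and hardly in myeloid ones. Satellite cell and myoblast-like cells held 203 CPM (183 to 224), mesenchymal-like cells 198 CPM (191 to 204), endothelial-like cells 179 CPM (139 to 227), smooth muscle and pericyte-like cells 155 CPM (123 to 194) and tenocyte-like cells 76.3 CPM. The first 3 of these did not differ beyond counting error, with log2 ratios to mesenchymal-like cells of 0.04 (-0.12 to 0.19) for satellite cell and myoblast-like and -0.14 (-0.51 to 0.21) for endothelial-like cells. Schwann-like cells had 23.4 CPM with 10 of their 19 UMIs in 1 cell, monocyte/macrophage-like cells 1.13 CPM (0.888 to 1.41) and dendritic-like cells 0.425 CPM. Cntfr, the subunit that makes a cell sensitive to CNTF and CLCF1, was highest in tenocyte-like cells at 80.5 CPM (70.8 to 91.2), and mesenchymal-like cells had 20.6 CPM (18.7 to 22.7), a log2 ratio of 1.97 (1.73 to 2.20). Schwann-like cells held 3.69 CPM (3 UMIs), satellite cell and myoblast-like cells 1.01 CPM and monocyte/macrophage-like cells 0.263 CPM, and it was at 0 in dendritic-like, endothelial-like and smooth muscle and pericyte-like cells, where 3 UMIs would have given 0.637, 7.91 and 5.97 CPM.

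**Figure D2:**
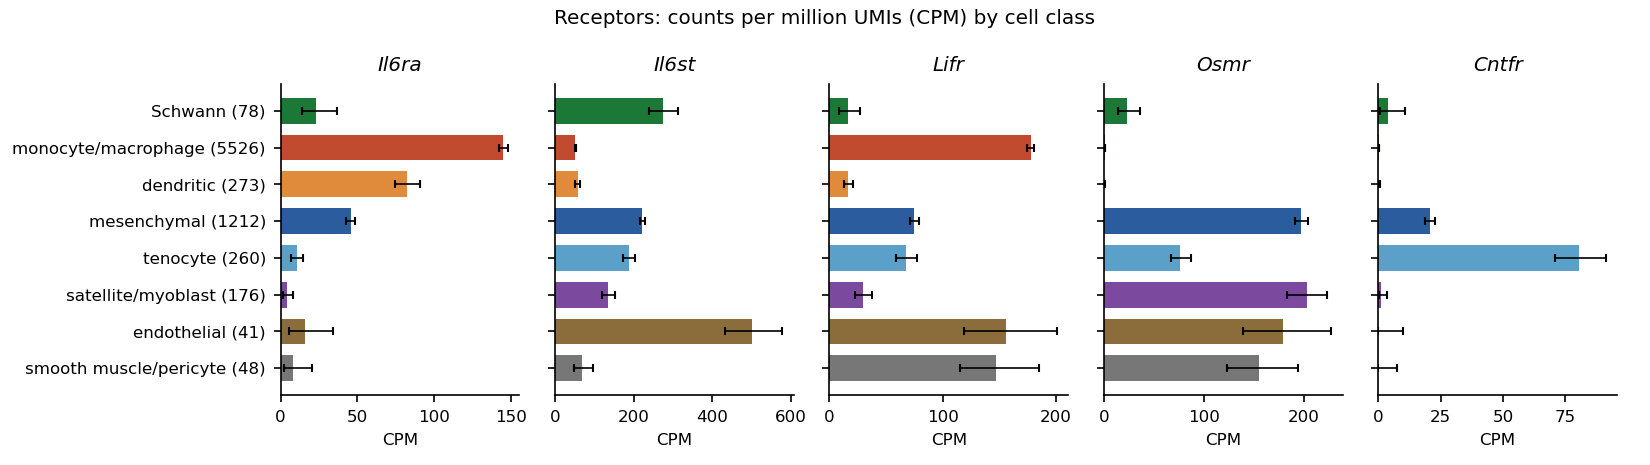
Levels of the 5 receptor subunits in the same 8 classes, in CPM, each panel with its own axis from 0, with 95% Poisson intervals. Il6ra and Lifr are highest in monocyte/macrophage-like cells (145 and 178 CPM), Osmr lies between 155 and 203 CPM in 4 stromal, muscle and vascular classes and at 1.13 CPM in monocyte/macrophage-like cells, and Cntfr is highest in tenocyte-like cells at 80.5 CPM.

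The 2 largest classes were compared over all genes with at least 20 UMIs in them. A difference of at least 4 times in favour of mesenchymal-like cells was found for 4 of the 10 members (Il6, Il6st, Osmr and Cntfr), where 17.4% of all 17333 genes reached it. In favour of monocyte/macrophage-like cells it was found for 1 of 10, Osm, against 11.6% of all genes. The log2 ratios of mesenchymal-like over monocyte/macrophage-like cells were 7.46 (7.13 to 7.80) for Osmr, 6.29 (5.61 to 7.06) for Cntfr, 3.88 (3.82 to 3.95) for Il6, 2.11 (2.04 to 2.17) for Il6st, 1.32 (0.78 to 1.85) for Lif, -0.29 (-1.05 to 0.41) for Cntf, -0.81 (-1.23 to -0.41) for Clcf1, -1.25 (-1.32 to -1.17) for Lifr, -1.67 (-1.77 to -1.57) for Il6ra and -7.04 (-7.95 to -6.26) for Osm. Cntf alone had an interval that held 0. Osm and its receptor Osmr thus lay at opposite ends of the list. The median was 2.11 over the receptors and -0.29 over the ligands, beside 0.11 over all genes. The values of Osm, Osmr and Cntfr moved with how barcodes passing several gates were treated, which took Osm to -4.67 and Cntfr to 5.05 when each was given to 1 class.

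Between Schwann-like and mesenchymal-like cells, 9 of the 10 members reached 20 UMIs, and Osm with 13 UMIs in mesenchymal-like and 0 in Schwann-like cells did not. Schwann-like cells were at least 4 times as high for 3 of these 9, the ligands Lif, Clcf1 and Cntf, against 6.80% of all 14338 genes tested. Mesenchymal-like cells were at least 4 times as high for 4 of the 9 (Il6, Lifr, Osmr and Cntfr), against 6.54% of all genes. The log2 ratios of Schwann-like over mesenchymal-like cells were 2.79 (1.86 to 3.64) for Lif, 3.35 (2.61 to 4.04) for Clcf1, -2.23 (-3.14 to -1.45) for Lifr, -2.48 (-4.77 to -0.92) for Cntfr, -3.08 (-3.81 to -2.43) for Osmr and -3.13 (-3.57 to -2.72) for Il6. Il6st differed little, at 0.31 (0.11 to 0.50). The median was 3.07 over the 4 ligands and -2.23 over the 5 receptors tested, beside 0.36 over all genes.

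Macrophages were split by marker genes into subsets whose lists also hold no member, namely 1605 resident cells (Lyve1, Folr2), 646 infiltrating monocytes (Ly6c2, Ccr2) and 457 lipid-associated cells (Gpnmb, Trem2), with 2818 cells in none. Over these subsets Osm, Clcf1 and Il6 were lowest in resident cells, while Lifr and Il6ra were highest there. Osm was 151 CPM (143 to 160) in lipid-associated cells, 132 CPM (124 to 141) in infiltrating monocytes and 58.4 CPM (55.1 to 61.8) in resident cells. Clcf1 was 12.4 CPM, 16.1 CPM and 0.444 CPM in the same order, a log2 ratio of 5.18 (4.21 to 6.35) for infiltrating monocytes over resident cells. Il6 was 56.8 CPM, 82.2 CPM and 21.0 CPM. Lifr instead was 22.4 CPM (19.3 to 25.8) in lipid-associated cells, 98.1 CPM (91.3 to 105) in infiltrating monocytes and 259 CPM (252 to 266) in resident cells, so that resident cells were 11.6 times as high as lipid-associated cells. Il6ra followed the same order with 55.9, 120 and 166 CPM. Il6st hardly moved, with 41.8, 51.9 and 53.3 CPM, and Osmr stayed at or below 1.67 CPM in all 3.

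**Figure D3:**
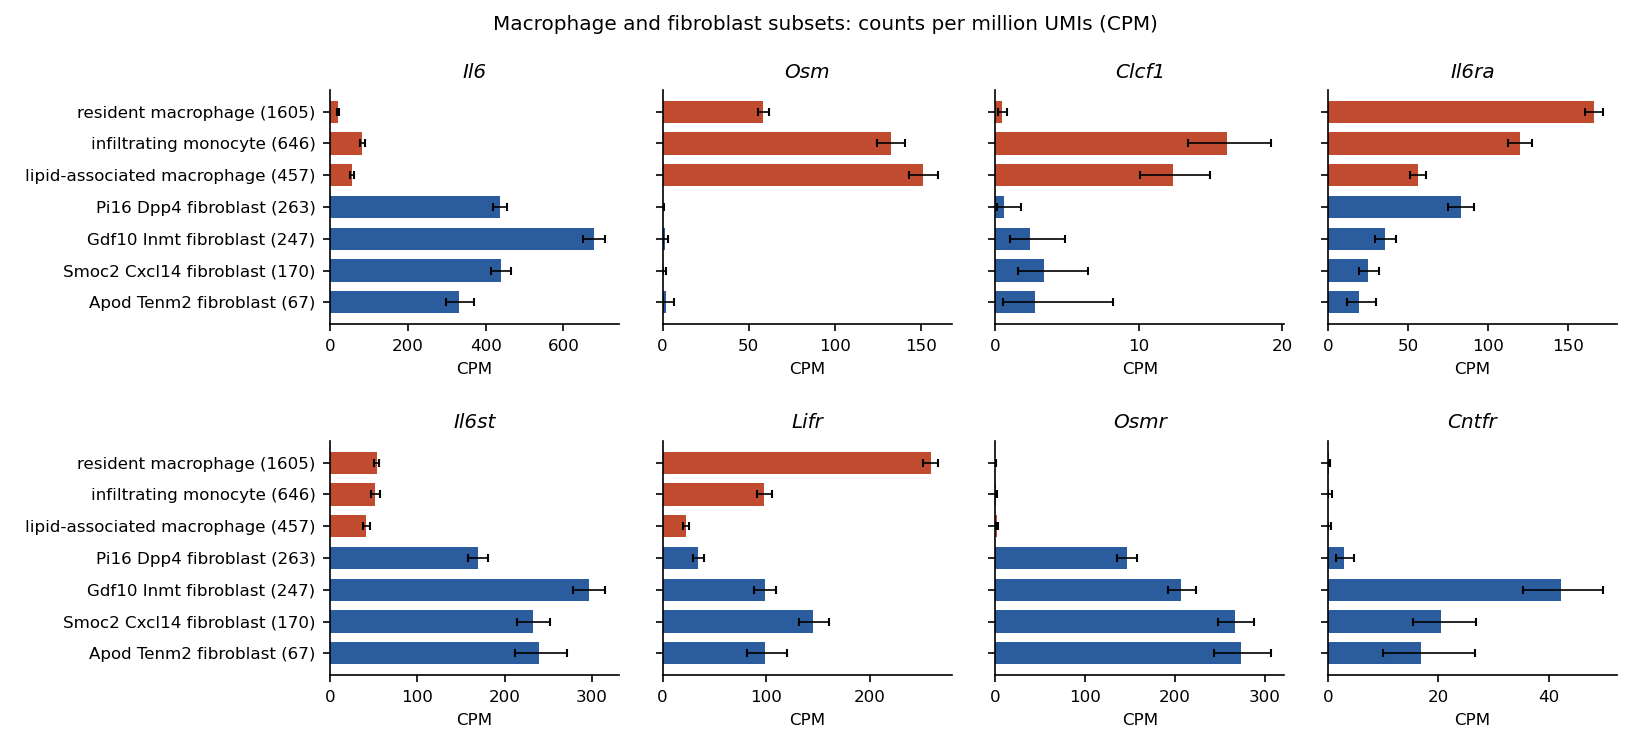
Levels of 8 members in macrophage subsets (red) and fibroblast subsets (blue), in CPM with 95% Poisson intervals, each panel with its own axis from 0. Lifr falls from 259 CPM in resident to 22.4 CPM in lipid-associated macrophages while Osm goes from 58.4 to 151 CPM, and Cntfr goes from 2.87 CPM in Pi16 Dpp4 to 42.1 CPM in Gdf10 Inmt fibroblasts.

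Mesenchymal-like cells were split in the same way into 263 Pi16 Dpp4, 247 Gdf10 Inmt, 170 Smoc2 Cxcl14 Hsd11b1 and 67 Apod Tenm2 Col28a1 fibroblasts, with 465 cells in none. The subsets are called by their genes. Il6 was high in all of them, at 436 CPM (418 to 455), 679 CPM (651 to 708), 439 CPM (414 to 465) and 332 CPM (299 to 369) in this order. Il6ra was highest in Pi16 Dpp4 cells at 82.8 CPM (74.9 to 91.3), with 35.4, 25.1 and 19.6 CPM in the other three. Lifr was lowest there at 34.4 CPM, with 98.4, 146 and 99.0 CPM in the others. Osmr was also lowest there at 146 CPM (136 to 157), with 207, 267 and 274 CPM. Cntfr was 2.87 CPM (1.57 to 4.81) in Pi16 Dpp4 cells and 42.1 CPM (35.4 to 49.8) in Gdf10 Inmt cells, a log2 ratio of 3.88 (3.08 to 4.79), with 20.5 and 16.8 CPM in the other subsets. Il6st ranged from 169 CPM in Pi16 Dpp4 to 296 CPM in Gdf10 Inmt cells.

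A receptor of this family needs every subunit, although Il6ra and Cntfr can also reach a cell in soluble form, and cells with a UMI of each subunit were counted after thinning to 5000 UMIs. For Osmr with Il6st this was 35.1% (32.5 to 37.9%) of mesenchymal-like, 34.1% (20.1 to 50.6%) of endothelial-like, 23.3% of satellite cell and myoblast-like and 21.5% of tenocyte-like cells, and 0.199% (0.0994 to 0.356%) of the monocyte/macrophage-like cells that hold most of the Osm UMIs. For Lifr with Il6st it was 18.1% of mesenchymal-like and 12.1% of monocyte/macrophage-like cells, with 32.9% (25.9 to 40.6%) in Smoc2 Cxcl14 Hsd11b1 fibroblasts, and 16.4% (14.7 to 18.4%) in resident against 1.53% (0.618 to 3.13%) in lipid-associated macrophages. For Il6ra with Il6st it was 11.5% (10.6 to 12.3%) of monocyte/macrophage-like and 9.74% (8.13 to 11.5%) of mesenchymal-like cells, 2 shares whose intervals overlap, and 16.3% of Pi16 Dpp4 fibroblasts. Cntfr, Lifr and Il6st were found together in 5.00% (2.69 to 8.40%) of tenocyte-like and 1.98% of mesenchymal-like cells, and in 0 of 78 Schwann-like cells, which allows a share of up to 3.85%, and 0 of 176 satellite cell and myoblast-like cells, which allows up to 1.70%. These limits are 3 cells of the class, and the upper ends of the exact binomial intervals are 4.62% and 2.07%. Without thinning the shares were higher, such as 71.4% of mesenchymal-like and 0.597% of monocyte/macrophage-like cells for Osmr with Il6st, and 21.5% of tenocyte-like cells for the CNTF receptor. A missing UMI at this depth does not show that a subunit is absent.

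**Figure D4:**
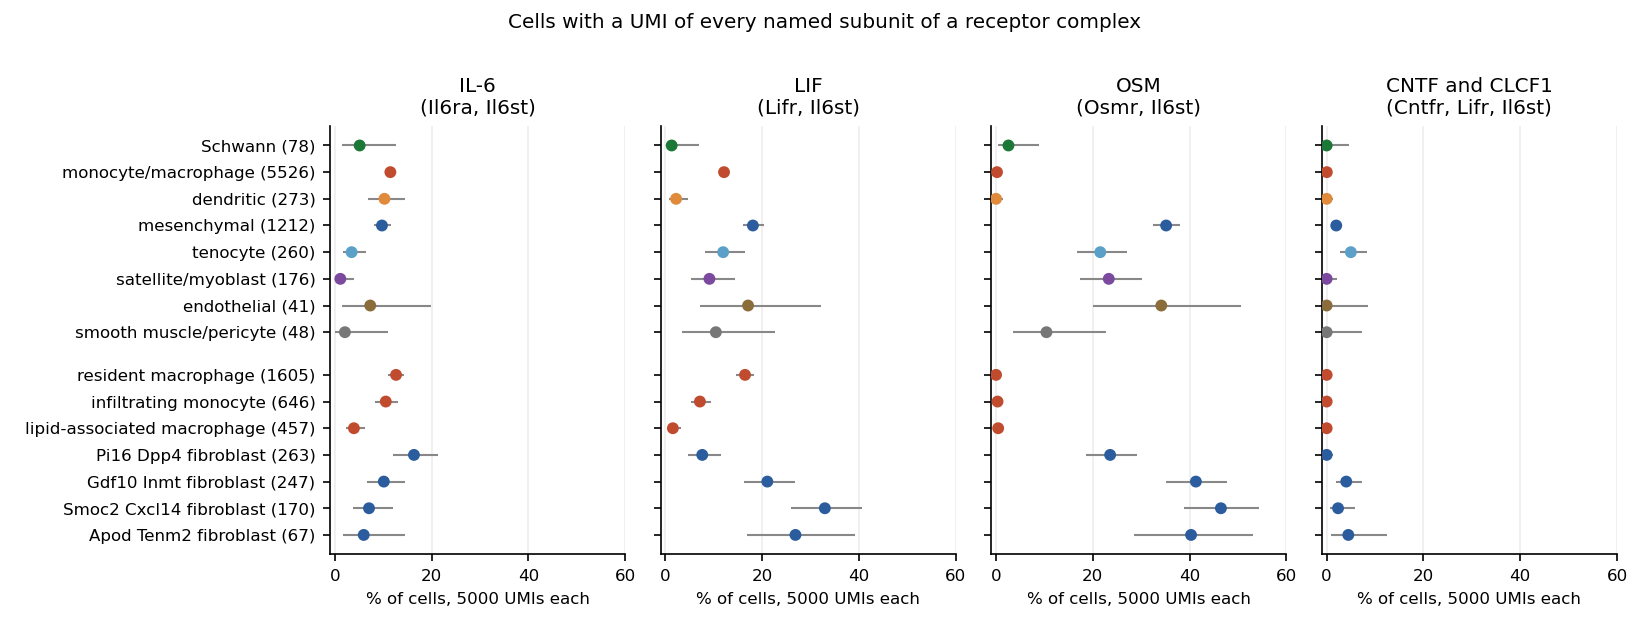
Percent of cells, each thinned to 5000 UMIs, that hold a UMI of every subunit of a receptor complex, by class (upper rows) and subset (lower rows), with 95% exact binomial intervals as lines. The OSM pair reaches 35.1% in mesenchymal-like cells and 0.199% in monocyte/macrophage-like cells, and the CNTF receptor reaches 5.00% in tenocyte-like cells.

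The Il6 level of mesenchymal-like cells came from a wide spread between cells. Of 1212 cells, 346 held no Il6 UMI, the median was 3, the highest was 111, and 336 (27.7%) held at least 10. The tenth of the cells with the most held 48.8% of the UMIs. Across these cells the genes whose levels were most alike to Il6, a measure on a log scale added after the data were seen, were Nfkb1 (Pearson's r 0.49), Junb (0.49), Cxcl1 (0.49), Zfp36 (0.49), Mt2 (0.45), Mt1 (0.44), Ptgs2 (0.44), Kdm6b (0.44), Cebpb (0.44) and Tnfaip6 (0.43), out of 6791 genes found in at least 20% of the cells. Nfkb1 encodes a subunit of NF-kB and Junb one of AP-1, Cxcl1 is a chemokine, Ptgs2 makes prostaglandins and Zfp36 degrades cytokine mRNA. The cells share 1 library and differ in depth, so these r values are a description. All cells were dissociated with enzymes and sorted, and no uninjured library was read. Effects of handling and of denervation on Il6 thus cannot be told apart. An Il6ra UMI was found in 41.3% of the mesenchymal-like cells with an Il6 UMI and in 34.1% of those without.

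**Figure D5:**
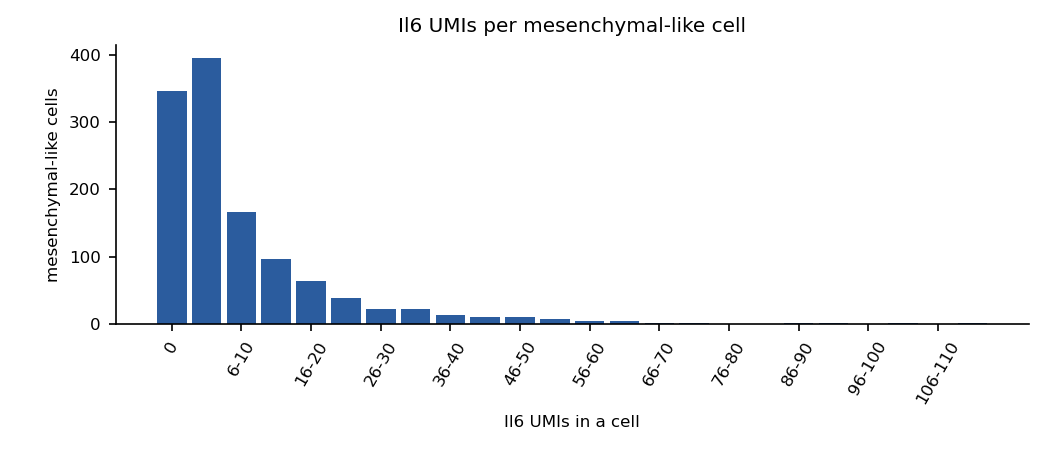
Number of mesenchymal-like cells by their Il6 UMIs, with 0 apart and then bins of 5 UMIs. Of 1212 cells, 346 hold none, and the tail reaches 111 UMIs in 1 cell.

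The rest of the pathway was read through 31 genes in lists of other family ligands and receptors, receptor shedding, signal transduction, negative regulators and STAT3 target genes, of which the negative regulator Socs3 stands in 2 lists. Of these 31, 9 were at least 4 times as high in mesenchymal-like as in monocyte/macrophage-like cells and 2 the other way, beside the 17.4% and 11.6% of all genes. Of the 4 other ligands, Il11 and Ctf1 passed in favour of mesenchymal-like cells and Ebi3, a subunit of IL-27 and IL-35, in favour of monocyte/macrophage-like cells, which held 19.6 CPM of it compared with 0.205 CPM. Il11 was highest in Schwann-like cells at 96.0 CPM (75.9 to 120), with a UMI in 25.6% of the cells, compared with 3.80 CPM in mesenchymal-like cells. The Schwann-like level rested on few cells, since 20 of the 78 Il11 UMIs were in 1 cell and the tenth of the cells with the most held 76.9%. The receptor of IL-11, Il11ra1, was highest in tenocyte-like (540 CPM) and mesenchymal-like cells (465 CPM) and stood at 20.9 CPM in Schwann-like cells. None of the 6 signalling genes passed in either direction. Stat3, the transcription factor of the pathway, lay between 253 CPM in dendritic-like and 539 CPM in tenocyte-like cells, and Jak1 between 143 CPM in dendritic-like and 705 CPM in mesenchymal-like cells. Jak2 was highest in dendritic-like cells at 523 CPM and lay between 34.7 and 153 CPM elsewhere. Of the 4 negative regulators Socs1 passed, with 86.3 CPM in mesenchymal-like and 13.8 CPM in monocyte/macrophage-like cells, while Socs3 was 501 CPM and 285 CPM. Of the 13 STAT3 target genes, Cebpd, Timp1, Lcn2, Serpina3n and Saa3 passed in favour of mesenchymal-like cells and the chemokine Ccl2 in favour of monocyte/macrophage-like cells, and the others lay between. Serpina3n, a protease inhibitor, differed most, with 354 CPM and 1.30 CPM. Of the 13, none was at least 4 times as high in Schwann-like as in mesenchymal-like cells, against 6.80% of all genes, and 4 (Lcn2, Serpina3n, Saa3 and Ccl2) were at least 4 times as high in mesenchymal-like cells, against 6.54%. The shedding proteases Adam10 and Adam17, which can release Il6ra from the cell surface, did not pass, with 57.3 and 76.1 CPM in mesenchymal-like and 90.4 and 181 CPM in monocyte/macrophage-like cells.

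For each member with at least 200 UMIs, the genes with the most similar pattern were taken by Pearson's r of log2(CPM + 1) over the 6 classes with at least 50 cells, among 12684 genes. With 6 points from 1 library many genes reach high values, and r is a description. They were Gask1b, Mycbp2 and Gm12796 for Il6 (0.98 to 0.99), Cd300lf, Aoah and Il1a for Osm (1.00), Mrto4, Dhx9 and Serbp1 for Clcf1 (0.99), Arhgef1, Smim24 and Cyp4v3 for Il6ra (0.99), Scrn1, Gulp1 and Fbxl7 for Il6st (0.99 to 1.00), Cd4, 6430628N08Rik and C9 for Lifr (0.98 to 0.99), Arhgap29, Pde3a and Aox1 for Osmr (0.99 to 1.00) and Clec11a, Sec22b and H2afy2 for Cntfr (0.99 to 1.00). Lif and Cntf had too few UMIs for this measure. Among pairs of the other members, r was highest for Il6st and Osmr (0.80) and Osm and Il6ra (0.75), and lowest for Osm and Il6st (-0.80), Il6ra and Osmr (-0.78) and Osm and Osmr (-0.72).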

How the data were processed

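The deposited matrix holds raw counts, UMIs per gene and barcode, which the authors made with Cell Ranger (8.0.1 in the matrix header, 7.1.0 in the submitters' processing notes), after its cell calling. The processing notes name mm10 as the genome and the methods name both GRCm38 and GRCm39. The matrix gives no coordinates, and those printed are of GRCm38.p6, matched by symbol. The 10 members, the marker lists and the pathway lists were chosen with earlier results of these data known. Gate thresholds and the minimum of 40 cells for a class were set after the data were seen.

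Cells needed at least 5000 UMIs, over 200 genes and a mitochondrial share below 10%. A class needed 3 distinct markers, 5 marker UMIs and 300 CPM of its list, or 1000 CPM for the monocyte/macrophage, mesenchymal and tenocyte lists. Barcodes passing several gates were left out, which also served as the treatment of doublets, and 152 of these passed the mesenchymal and the tenocyte gate and no other. Subsets needed 2 markers, 3 UMIs and 1.5 times the share of the class. UMIs were summed by class and divided by the class total (CPM). Exact intervals of 95% (Poisson for CPM, Clopper-Pearson for shares, conditional for ratios) cover counting error only, and a floor is 3 UMIs. Genes at 0 were set at the floor in counts of genes past 4 times. All members were named, pathway genes where they passed 4 times (others were chosen after their values were seen), and the 3 most alike genes of each member with at least 200 UMIs. The steps were tested on counts simulated from pooled profiles of the gated classes. Such counts lack the spread between cells seen here, so the simulation does not cover it. scipy 1.17.1, scanpy 1.11.5 (for Scrublet) and Python 3.11.15 were used. The GFP- matrix was not used here. A gene of the pathway lists is not reported here and was left out of their counts.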

Additional observations from a re-analysis of the deposited data

How the results depend on the processing

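The log2 ratios of the 10 members between mesenchymal-like and monocyte/macrophage-like cells were recomputed under 8 alternatives. Of the 80 values, 56 stayed within the counting interval, 24 moved beyond it and none changed direction. With at least 10000 UMIs Il6 was 3.71, Il6ra -1.54, Lifr -1.16 and Cntfr 7.25. With at least 3000 UMIs Il6 was 3.74, Osm -5.69, Il6st 2.04 and Osmr 5.79, and under 5% mitochondrial counts Il6 was 3.74. Giving barcodes that passed several gates to 1 class gave 3.74 for Il6, -4.67 for Osm, 2.02 for Il6st, 6.0 for Osmr and 5.05 for Cntfr. Doubled marker thresholds gave -5.77 for Osm and 6.43 for Osmr, and removing the 1267 barcodes with the highest Scrublet scores gave 8.78 for Osmr. The mean over cells gave 4.08 for Il6 and -1.83 for Il6ra. Leaving out the 1% of cells with the most UMIs of a gene gave 4.37 for Il6. It also gave 5.09 for Lif, -8.96 for Osm, 12.03 for Osmr and 8.68 for Cntfr, where the lower class was left with no UMI and set at a floor of 3 UMIs. In these 4 the step took every cell with a UMI from the lower class, so the values are not bounds on the ratio.

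The counts of 4 members at least 4 times as high in mesenchymal-like cells, and of 1 in monocyte/macrophage-like cells, were again 4 and 1 under 7 of the 8 alternatives and with no minimum of UMIs. Leaving out the 1% of cells gave 5 and 1, through the floor set for Lif, and a limit of 2 times gave 5 and 3. After the data were seen, 8 further ratios were run the same way, of which 47 of 64 values stayed within the interval and 1 reversed, Il6 of mesenchymal-like over smooth muscle and pericyte-like cells at -0.63 under 5% mitochondrial counts. Without the 1% of cells with the most UMIs of the gene that ratio was 1.91, Cntf of Schwann-like over mesenchymal-like cells went from 6.50 to 8.18 and Clcf1 of satellite cell and myoblast-like over mesenchymal-like cells from 5.07 to 5.70. Endothelial Il6st ranged from 0.66 to 1.70. For Cntf and Clcf1, leaving out the 1% took a larger part of the mesenchymal-like level than of the level of the other class. The cause of the other moves was not tested. The 41 to 78 cells of the rarer classes and 1 library limit what can be read. No paired analysis was possible because the counts of 1 library were used here and the labels carry no replicate numbers across groups.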

Other observations

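The barcodes that belonged to no comparison held members too. In the 686 barcodes that passed several gates Il6 was 194 CPM (186 to 203), Osmr 87.4 CPM and Osm 24.3 CPM, values between those of mesenchymal-like and monocyte/macrophage-like cells, and Cntfr was 24.3 CPM (21.3 to 27.6), above the 20.6 CPM of mesenchymal-like and below the 80.5 CPM of tenocyte-like cells. In the 363 barcodes that passed no gate Clcf1 was 25.8 CPM (21.1 to 31.2), Il6ra 84.7 CPM, Il6st 84.2 CPM and Il6 62.6 CPM.

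In the same cells, an Osm UMI was found in 48.8% of the 819 monocyte/macrophage-like cells with an Il6 UMI and in 38.3% of those without. An Osmr UMI was found in 0.908% of the monocyte/macrophage-like cells with an Osm UMI and in 0.933% of those without. In Schwann-like cells a Cntf UMI was found in 5 of the 12 cells with a Lif UMI (41.7%), beside 53.0% of those without. It was found in 11 of the 21 cells with a Clcf1 UMI (52.4%), beside 50.9% of those without. These shares are not corrected for depth. Osm lies 16.5 kb from Lif on chromosome 11 (GRCm38.p6), with the highest level of Osm in monocyte/macrophage-like and that of Lif in Schwann-like cells. Osmr lies 216 kb from Lifr on chromosome 15.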
